A study of Mus musculus with 20 samples.

Results

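The genes described here were the RefSeq noncoding RNAs that an Agilent expression array could detect in mouse embryonic fibroblasts. They were chosen as array probes whose design file gave a RefSeq accession of the noncoding class (prefix NR_) and whose signal was well above background in 4 or more of the 20 samples. Gas5, genes whose symbol starts with Snhg, and 1110038B12Rik were left out. This went by symbol, so hosts of small nucleolar RNAs under other names, such as 2410006H16Rik and Dancr, stayed in. Of 1216 probes with such an accession for 1067 genes, 610 passed the detection rule. After 15 were left out 595 probes remained, which stood for 522 genes. They were 522 of 24178 genes and transcripts tested on the array. Of these genes, 480 had a current symbol and 42 were known only by an accession that the gene table did not hold. The table typed 350 of the 522 as long noncoding RNA genes, 104 as transcribed pseudogenes and 14 as protein-coding genes with a noncoding transcript. The others were 4 small nuclear RNAs, 2 small nucleolar RNAs, 2 antisense RNAs, 2 ribosomal RNAs, the RNA of RNase MRP and the telomerase RNA.

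The fibroblasts had a Balb/c background. Uridine was added to their medium, which allows growth when the respiratory chain fails. They were exposed to 150 µM actinonin for 6, 24, 48 or 72 h, or to the ethanol carrier alone at 3 µl/ml, which the labels place at 0 h. Actinonin is an antibiotic that inhibits peptide deformylase, an enzyme of bacteria and mitochondria. Each of the 5 groups had 4 samples, 2 labelled with Cy3 and 2 with Cy5, and each sample pooled the RNA of 4 plates. The labels name no altered gene in any group. The labels call the 4 samples of a group independent and say no more, so the p-values cover only the spread among them, which may be technical. Because the carrier samples were taken at 0 h, time in culture and exposure to actinonin cannot be told apart.

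Noncoding RNAs act without being translated. Long ones can coat chromosomes (Xist), scaffold nuclear bodies (Neat1), silence neighbouring genes in imprinted domains (Airn, Kcnq1ot1) or bind proteins in the cytoplasm (Norad). Others serve as precursors from which microRNAs and small nucleolar RNAs are cut. MicroRNAs pair with messenger RNAs through a short seed near their start, and small nucleolar RNAs guide chemical changes of ribosomal RNA. Many host transcripts and pseudogene transcripts carry premature stop codons and are known substrates of nonsense-mediated decay, which needs ongoing translation.

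In the gene table, 11 of the named members held a microRNA gene within their span, with 60 mature sequences and 53 different seeds in all. The sequences below, from RefSeq (build GRCm38.p6), are products of the hosts whose level changed, with at least 1 shown for each. Capitals mark the seed, bases 2 to 8. The array measured the host transcripts and not these products. From 6430411K18Rik and Mirg, both in the imprinted Dlk1-Dio3 domain, come the products
mmu-miR-433-3p: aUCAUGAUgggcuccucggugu
mmu-miR-453: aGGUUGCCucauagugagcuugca
mmu-miR-496a-5p: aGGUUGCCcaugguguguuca
mmu-miR-409-5p: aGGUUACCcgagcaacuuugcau
mmu-miR-410-3p: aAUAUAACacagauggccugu
mmu-miR-377-3p: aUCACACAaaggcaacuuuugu
mmu-miR-154-5p: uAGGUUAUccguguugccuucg
of which miR-453 and miR-496a-5p share 1 seed. From Dnm3os come the products
mmu-miR-199a-5p: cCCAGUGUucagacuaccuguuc
mmu-miR-199a-3p: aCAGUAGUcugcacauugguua
mmu-miR-214-3p: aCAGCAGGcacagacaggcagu
and from Mir17hg, Mir22hg, Ftx, Meg3 and Dubr in turn the products
mmu-miR-92a-3p: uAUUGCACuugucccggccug
mmu-miR-22-3p: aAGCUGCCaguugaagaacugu
mmu-miR-374b-5p: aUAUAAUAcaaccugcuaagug
mmu-miR-770-5p: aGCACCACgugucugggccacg
mmu-miR-6363: uGUAGACUggacuguccucaaa
which share no seed among themselves. For comparison, the products of Dleu2, a host that passed the test at no time, share 1 seed:
mmu-miR-15a-5p: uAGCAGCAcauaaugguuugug
mmu-miR-16-5p: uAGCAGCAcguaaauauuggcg

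The start regions of 5 members with a symbol that moved by more than 2-fold are shown next, from RefSeq (build GRCm38.p6), each from 250 bases before the start of the gene to 50 bases after it and read 5′ to 3′. The region of 2410006H16Rik lay at chr11:62602627-62602926 on the plus strand, that of 4930431P03Rik at chr14:44961258-44961557 on the minus strand and that of Xist at chrX:103483184-103483483 on the minus strand. These 3 genes rose. The regions of Lockd, at chr6:134928842-134929141, and 3300005D01Rik, at chr17:5798407-5798706, both on the plus strand, belonged to genes that fell. Capitals mark matches to 1 of 5 motifs searched on both strands: TGATGNAA (the core of the amino acid response element), CACGTG (an E-box), TGANGTCA (like a cyclic AMP response element), TTTNNCGC (like an E2F site) and an NRF1-like motif. These patterns do not overlap in these 5 regions.
2410006H16Rik: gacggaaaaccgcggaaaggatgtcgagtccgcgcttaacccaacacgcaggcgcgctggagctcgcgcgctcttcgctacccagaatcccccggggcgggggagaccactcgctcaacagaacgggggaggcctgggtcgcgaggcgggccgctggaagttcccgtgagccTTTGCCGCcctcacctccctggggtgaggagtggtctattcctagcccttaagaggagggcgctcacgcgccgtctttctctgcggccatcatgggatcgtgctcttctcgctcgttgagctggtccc
4930431P03Rik: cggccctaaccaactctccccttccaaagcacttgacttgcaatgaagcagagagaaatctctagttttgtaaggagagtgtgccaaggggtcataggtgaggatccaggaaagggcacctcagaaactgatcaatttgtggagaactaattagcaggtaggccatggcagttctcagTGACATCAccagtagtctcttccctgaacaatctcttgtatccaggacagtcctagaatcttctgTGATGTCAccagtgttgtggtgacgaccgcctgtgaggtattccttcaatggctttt
Xist: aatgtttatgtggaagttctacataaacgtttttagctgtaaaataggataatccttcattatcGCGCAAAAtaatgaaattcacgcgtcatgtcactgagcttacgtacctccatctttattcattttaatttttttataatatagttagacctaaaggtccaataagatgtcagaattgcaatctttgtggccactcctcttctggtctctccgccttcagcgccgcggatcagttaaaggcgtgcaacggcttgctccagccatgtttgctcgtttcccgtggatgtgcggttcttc
Lockd: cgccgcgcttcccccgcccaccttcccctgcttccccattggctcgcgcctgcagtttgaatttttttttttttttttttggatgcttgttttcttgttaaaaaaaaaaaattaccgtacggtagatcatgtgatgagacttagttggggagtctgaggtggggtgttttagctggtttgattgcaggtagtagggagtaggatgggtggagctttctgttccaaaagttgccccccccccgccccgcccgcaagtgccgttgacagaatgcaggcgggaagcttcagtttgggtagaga
3300005D01Rik: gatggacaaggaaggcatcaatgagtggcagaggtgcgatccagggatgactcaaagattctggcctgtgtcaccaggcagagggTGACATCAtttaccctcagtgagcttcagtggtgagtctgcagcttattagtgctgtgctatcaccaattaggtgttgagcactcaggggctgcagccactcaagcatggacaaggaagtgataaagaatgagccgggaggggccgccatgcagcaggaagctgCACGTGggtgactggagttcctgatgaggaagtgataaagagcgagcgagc
The 4930431P03Rik region held TGANGTCA at 2 places, and 10% of all 27025 genes with such a region held it. The 3300005D01Rik region held TGANGTCA once and CACGTG once, the latter being held by 8.09% of all genes. TTTNNCGC, found in the 2410006H16Rik and Xist regions, was held by 5.93% of all genes. The Lockd region held none of these 5 letter patterns. TGATGNAA was held by 5 of the 296 members with a region in the table (1.69%) and by 4.51% of all genes.

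The arrays held 62976 spots, and 50.8% to 70.5% of spots stood well above background in a sample. Array 7, with the carrier sample 2 in Cy3 and the 48 h sample 2 in Cy5, had the highest shares (66.4% and 70.5%). The other 18 samples lay between 50.8% and 58.7%. Arrays 1 and 2, with 2 carrier and 2 of the 6 h samples, sat on another slide than the rest. All 9 fibroblast markers tested were well above background in all 20 samples. Of the 9, 3 fell at 6 h, 8 at 24 h, 8 at 48 h and 8 at 72 h, and 1 rose at 72 h. Over all probes 22%, 36.8%, 39.1% and 45.3% passed in either direction at these times. The summed signal of the 9 ran from 1100000 to 1310000 in the carrier samples and from 968000 to 1140000 at 6 h. At 24, 48 and 72 h it ran from 811000 to 870000, 623000 to 777000 and 813000 to 902000. Of the macrophage and leukocyte markers 5 of 8 were tested, and Ptprc, Cd68 and Aif1 were not among them. Their summed signal ran from 43300 to 45700 in the carrier samples, 40000 to 46300 at 6 h, 33700 to 34800 at 24 h, 35800 to 41600 at 48 h and 34200 to 38600 at 72 h. None of these 5 rose at any time, and 3, 2 and 2 of them fell at 24, 48 and 72 h. The part of these cells in the results was not tested. In RNA from a whole culture, fewer cells of a kind and less RNA per cell cannot be told apart.

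Against the carrier, 101 of the 522 genes changed at 6 h (64 rose and 37 fell), which is 19.3% of them beside 22% of all probes tested (12.1% up and 9.95% down). Within slide 1, with 2 samples a group, 8 of them passed at 6 h, and a fit on the 2 groups alone called 57. At 24 h 165 changed (87 rose and 78 fell, 31.6% beside 36.8%, of which 19.6% up and 17.3% down), and 104 with loess alone, without scaling between arrays. At 48 h 162 changed (89 rose and 73 fell, 31% beside 39.1%, of which 20.2% up and 18.9% down), and at 72 h 212 changed (119 rose and 93 fell, 40.6% beside 45.3%, of which 24% up and 21.3% down). A gene is said to have risen or fallen where its adjusted p was under 0.05 in limma's moderated test, adjusted over all 33315 probes tested. These shares were thus somewhat below those over all probes, and the median change over the members was near 0 at each time (0.0088, 0.012, 0.014 and 0.019 on the log2 scale, beside -0.0003, 0.0091, -0.00098 and 0.0017 over all probes). The units differ, since a member counts once by its brightest probe and the shares over all probes count every probe. In a fit with 1 probe per gene throughout, 6006, 9739, 10100 and 11549 of 24178 genes and transcripts passed at the 4 times. Changes of at least 2-fold that passed the test were those of 1 gene at 6 h, 7 at 24 h, 6 at 48 h and 13 at 72 h (0.192%, 1.34%, 1.15% and 2.49%, beside 0.255%, 1.31%, 1.4% and 2.61% of all probes). Of the 522 genes, 247 passed the test at no time (47.3% beside 40.1% of all probes) and 50 at all 4 times (9.58% beside 11.3%), of which 31 rose throughout and 19 fell throughout. The 4 treated and 4 carrier values did not overlap for 19.5%, 37%, 28.7% and 44.3% of the members at the 4 times. Over all probes these shares were 21.5%, 41.6%, 35.3% and 47.7%. The largest changes were named only where values did not overlap, so for them this is no further support. The gene lists below were counted and not tested as sets. The shares over all probes, for both directions together, stand in the same paragraphs as their counts.

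The share that passed the test went with how bright the probe was. Among the noncoding genes, 53.4% fell in the dimmest of 3 equal classes of mean signal over all genes tested, against 22.2% of 13963 protein-coding genes. In that class 6.81%, 14.7%, 15.4% and 24% of the noncoding genes passed at 6, 24, 48 and 72 h. The coding genes of that class had 7.33%, 21.5%, 22.5% and 27.9%. In the middle class 30.3%, 47.7%, 43.9% and 55.5% of 155 noncoding genes passed, beside 34.6%, 51.6%, 54.2% and 61% of 4921 coding genes. In the brightest class 39.8%, 56.8%, 58% and 67% of 88 noncoding genes passed, beside 39.3%, 53.4%, 58.1% and 62.2% of 5945 coding genes. These shares are a description, since the difference between both classes was not tested.

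**Figure D1:**
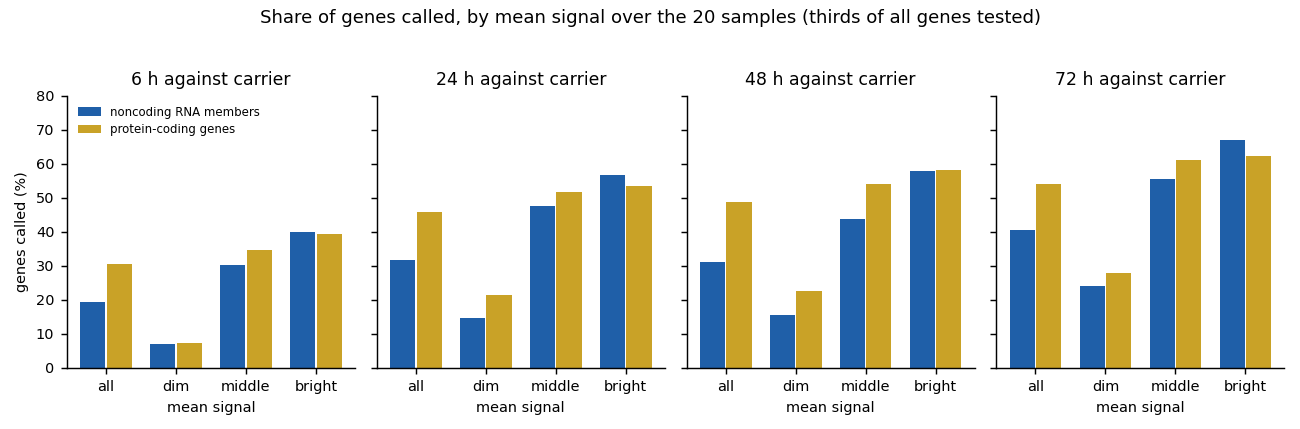
Bars give the percentage of genes with an adjusted p under 0.05 at each time against the carrier, for the noncoding genes (blue) and protein-coding genes (yellow), over all genes and over 3 classes of mean signal. Over all genes the blue bar is lower at each time (19.3% beside 30.5% at 6 h, 40.6% beside 54.2% at 72 h), and so it is in the dim and middle classes, while in the brightest class it is close to or above the yellow bar.

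Of 6 members whose span holds a small nucleolar RNA gene, 3 rose at 6 h and 2 at 24, 48 and 72 h, and none fell (medians 0.164, 0.102, 0.0675 and 0.0373). Over all probes, 22%, 36.8%, 39.1% and 45.3% passed in either direction at these times. 2410006H16Rik and Dancr rose at all 4 times, 4833422C13Rik at 6 h alone (0.24 ± 0.08), and 4930455D15Rik, 9330159M07Rik and 9430037G07Rik passed at no time. The span of 2410006H16Rik holds Snord49a, Snord49b and Snord65, which guide ribose methylation of RNA. Its log2 intensity was 13.46, 13.39, 13.17 and 13.31 in the carrier samples, 14.24, 14.10, 14.08 and 14.32 at 6 h, 14.94, 15.04, 15.03 and 14.98 at 24 h, 14.86, 14.87, 15.01 and 14.99 at 48 h, and 15.38, 15.26, 15.18 and 15.10 at 72 h. Every treated sample was above every carrier sample, and the 24, 48 and 72 h samples were all above the 6 h samples. The log2 change was 0.83 ± 0.07 (SE, 4 samples a group) at 6 h, 1.65 ± 0.09 at 24 h, 1.59 ± 0.08 at 48 h and 1.89 ± 0.09 at 72 h, or 3.70-fold at 72 h (adjusted p = 1.08e-11). These SEs came from 1 fit to all 20 samples with a shared estimate of the spread, as below unless another fit is named. At 6 h the rise was 0.67 ± 0.09 within slide 1 and 1.04 ± 0.09 within slide 2. Its nearest coding gene in the table, Lrrc75a, rose by 0.31 ± 0.07 at 48 h only among the 4 times. Intensities here and below are normalized log2 values with the fitted dye and slide terms removed, listed in the order sample 1 in Cy3, sample 1 in Cy5, sample 2 in Cy3, sample 2 in Cy5.

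Dancr, named for antagonizing differentiation, holds Snora26. It read 10.98, 11.56, 11.34 and 11.24 in the carrier samples and 11.72, 11.64, 11.89 and 11.77 at 6 h, so that these groups did not overlap. Its rise of 0.48 ± 0.09 at 6 h (adjusted p = 0.00106) was followed by 0.32 ± 0.11 at 24 h, 0.36 ± 0.10 at 48 h and 0.31 ± 0.11 at 72 h, where the values overlapped those of the carrier samples. The call at 24 h (adjusted p = 0.034) was lost without the 24 h sample 2 in Cy3 (0.28) or sample 1 in Cy5 (0.26), or without the carrier sample 2 in Cy3 (0.36) or in Cy5 (0.30). At 48 h it was lost without the carrier sample 2 in Cy5 (0.33). At 72 h it was lost without that carrier sample (0.28) or without the 72 h samples 1 in Cy3 (0.31), 2 in Cy3 (0.29) or 1 in Cy5 (0.28).

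The noncoding gene with the largest rise at 72 h was 4930431P03Rik, a long noncoding RNA gene of no known role. It read 7.31, 7.13, 7.402 and 7.18 in the carrier samples, 7.67, 7.90, 7.61 and 7.70 at 6 h, 8.43, 8.56, 8.67 and 8.49 at 24 h, 8.91, 8.98, 8.94 and 9.06 at 48 h, and 9.34, 9.43, 9.39 and 9.25 at 72 h. No group overlapped the next. The change against the carrier was 0.47 ± 0.07 at 6 h, 1.29 ± 0.08 at 24 h, 1.72 ± 0.07 at 48 h and 2.101 ± 0.08 at 72 h, or 4.29-fold (adjusted p = 2.17e-12). Each step from a time to the next also passed the test, with rises of 0.81, 0.44 and 0.38.

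Others rose from 6 h on. Cerox1, a long noncoding RNA known for its link to complex I of the respiratory chain, read 7.51, 7.49, 7.34 and 7.54 in the carrier samples and 8.16, 8.17, 8.02 and 8.14 at 6 h, a rise of 0.63 ± 0.06. Its change was 0.53 ± 0.07 at 24 h, 0.61 ± 0.06 at 48 h and 0.37 ± 0.07 at 72 h, and no treated sample fell to the level of a carrier sample. The step from 48 h to 72 h was a fall of 0.24 (adjusted p = 0.0112). 9330179D12Rik, whose span overlaps that of the cyclin gene Ccnd2, rose by 0.69 ± 0.08 at 6 h and 1.19 ± 0.10 at 72 h, while Ccnd2 rose by 0.37 ± 0.05 and 0.50 ± 0.06. A330009N23Rik, which overlaps Grasp, rose by 0.56 ± 0.07 at 6 h, 0.83 ± 0.08 at 48 h and 0.32 ± 0.09 at 72 h, and Grasp by 0.55 ± 0.07, 0.44 ± 0.07 and 0.47 ± 0.08. BB557941 rose by 0.53 ± 0.08 at 6 h and by 0.92 ± 0.09 at 72 h. 2 genes of this kind rose later: D630029K05Rik changed by -0.14 ± 0.08 at 6 h and rose by 0.45 ± 0.09, 0.87 ± 0.08 and 1.19 ± 0.09 at 24, 48 and 72 h, and 5031434O11Rik by 0.55 ± 0.09, 0.39 ± 0.08 and 0.94 ± 0.09. The latter also passed at 6 h without the 6 h sample 1 in Cy3 (0.24). Kantr rose by 0.25 ± 0.06 at 6 h and by 0.68 to 0.83 from 24 h on. Its call at 6 h was lost without the carrier sample 1 in Cy3 (0.19) and without a slide term (0.25).

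**Figure D2:**
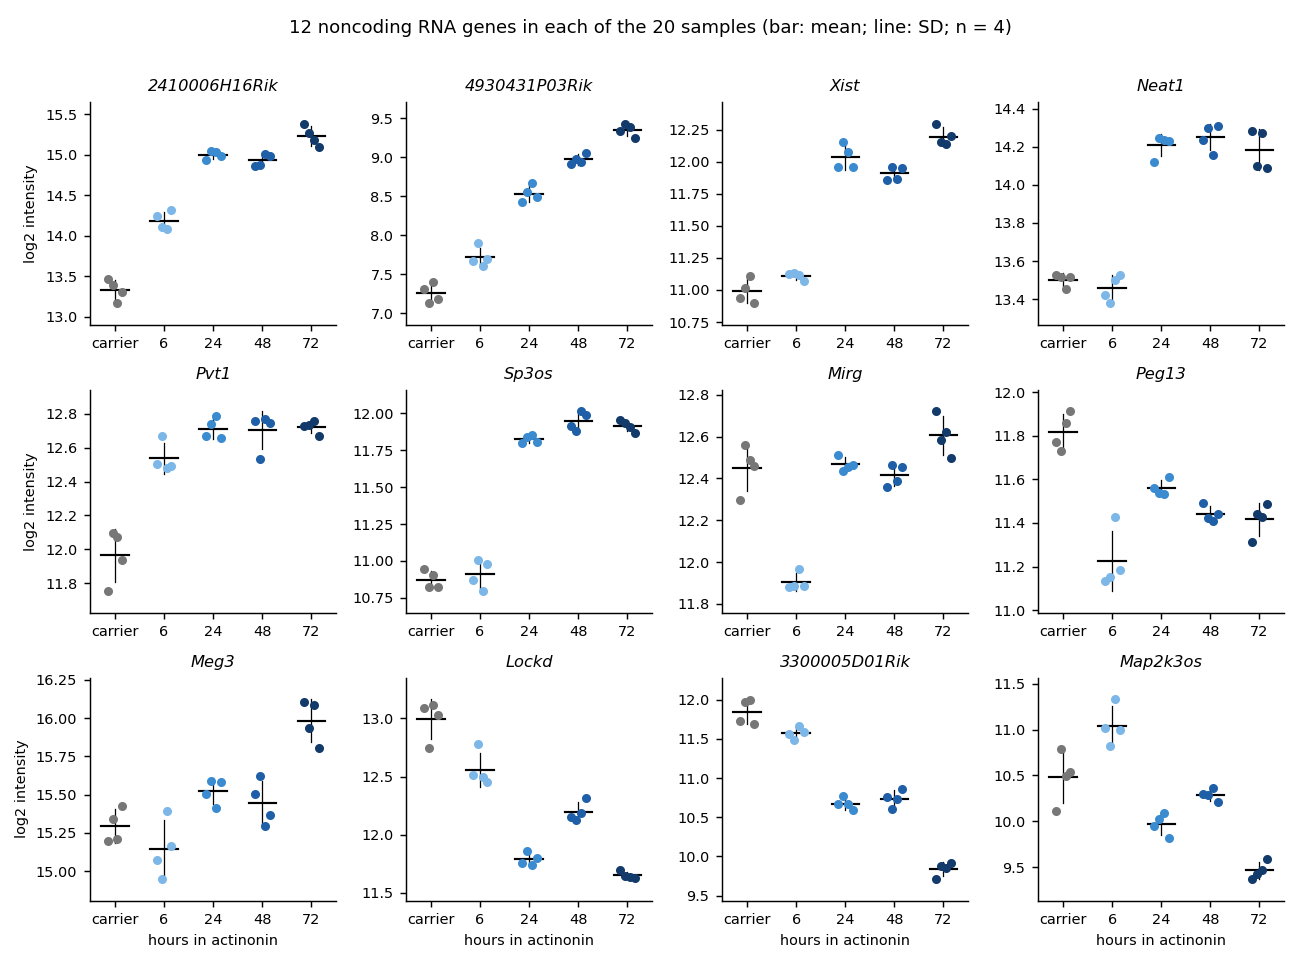
Each panel shows 1 noncoding gene, with a point per sample, a bar for the mean and a line for the SD of the 4 samples; the vertical axis is log2 intensity and differs between panels. 2410006H16Rik and 4930431P03Rik climb from 6 h on, Xist, Neat1 and Sp3os stay near the carrier at 6 h and are higher from 24 h on, Mirg is lower at 6 h alone, and Lockd and 3300005D01Rik fall.

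Of the RNAs of the X inactivation centre, Xist and Ftx rose from 24 h on and Jpx at 72 h. Xist, which coats the inactive X chromosome, read 10.94, 11.01, 11.11 and 10.90 in the carrier samples, 11.13, 11.13, 11.12 and 11.07 at 6 h, 11.96, 12.15, 12.07 and 11.96 at 24 h, 11.86, 11.96, 11.87 and 11.95 at 48 h, and 12.30, 12.15, 12.14 and 12.20 at 72 h. Its carrier and 6 h samples overlapped, and all later samples lay above both. The change was 0.12 ± 0.05 at 6 h (adjusted p = 0.0998), 1.05 ± 0.06 at 24 h, 0.92 ± 0.06 at 48 h and 1.21 ± 0.06 at 72 h (2.31-fold, adjusted p = 4.37e-11). The step from 6 h to 24 h was 0.92 (adjusted p = 5.46e-09). Ftx, an upstream activator of Xist, rose by 0.30 ± 0.07, 0.30 ± 0.06 and 0.45 ± 0.07 at 24, 48 and 72 h. Jpx, another activator, was well above background in 8 of 20 samples and in no carrier sample, and rose at 72 h alone, by 0.33 ± 0.11 (at least 1.19-fold). That call was lost without the carrier sample 2 in Cy3 (0.27) or the 72 h sample 1 in Cy5 (0.27). Of these 3 genes none passed at 6 h, 2 rose at 24 h and 48 h and 3 at 72 h, with medians of 0.114, 0.305, 0.3 and 0.446. The shares of all probes that passed in either direction were 22%, 36.8%, 39.1% and 45.3%. Without the carrier sample 2 in Cy3 Xist also passed at 6 h (0.17), and Ftx passed at 6 h without the 6 h sample 2 in Cy3 (0.17) or the carrier sample 1 in Cy5 (0.18).

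Among 7 RNAs on a list of nuclear and architectural RNAs, Neat1 and Pvt1 rose and Malat1 and Norad fell briefly. Norad stood on that list although it is cytoplasmic. Neat1, the scaffold of paraspeckles, read 13.53, 13.52, 13.46 and 13.52 in the carrier samples, 13.42, 13.38, 13.50 and 13.53 at 6 h, 14.12, 14.25, 14.24 and 14.23 at 24 h, 14.24, 14.30, 14.16 and 14.31 at 48 h, and 14.28, 14.10, 14.27 and 14.09 at 72 h. All samples from 24 h on lay above all earlier ones. The change was -0.05 ± 0.05 at 6 h and then 0.70 ± 0.07, 0.75 ± 0.06 and 0.68 ± 0.07. Pvt1, which lies next to Myc, read 11.75, 12.10, 12.07 and 11.94 in the carrier samples and 12.50, 12.67, 12.48 and 12.49 at 6 h, and it stayed between 12.53 and 12.79 afterwards. Its rise was 0.59 ± 0.07, 0.76 ± 0.09, 0.75 ± 0.08 and 0.77 ± 0.09 at 6, 24, 48 and 72 h. The change of Myc was 1.00 ± 0.08, 0.33 ± 0.10, 0.52 ± 0.09 and 0.15 ± 0.10, the last of which did not pass the test.

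Malat1, a nuclear speckle RNA, read 11.59, 11.78, 11.69 and 11.40 in the carrier samples and 11.25, 11.29, 10.98 and 11.30 at 6 h. The groups did not overlap, and it fell by 0.43 ± 0.09 (adjusted p = 0.00237). Within slide 1 the 6 h change was -0.55 ± 0.09 (adjusted p = 0.0426), and within slide 2 it was -0.27 ± 0.11 (adjusted p = 0.138). At 24, 48 and 72 h Malat1 was at -0.03, 0.01 and 0.23, and the last passed without the carrier sample 1 in Cy5 (0.28). Without a slide term the 6 h fall was as large (-0.44) and did not pass (adjusted p = 0.268). Norad, a cytoplasmic RNA that binds Pumilio proteins, fell by 0.35 ± 0.06 at 6 h, with samples of 12.47, 12.50, 12.53 and 12.42 against 12.94, 12.68, 12.82 and 12.93, and was at -0.04, -0.12 and -0.06 later, of which 48 h passed without the carrier sample 1 in Cy5 (-0.16). Both returned between 6 h and 24 h (0.40 and 0.31, adjusted p = 0.0107 and 0.0023). Tug1, a target of p53, and Nron, a repressor of NFAT, passed at no time, though without the carrier sample 2 in Cy5 Tug1 passed at 72 h (0.25). Over the list, 1 rose and 2 fell at 6 h, 2 rose at 24 h and at 48 h, and 3 rose at 72 h, where Meg3 joined. Of 17 paraspeckle proteins measured, 3 rose and 6 fell at 72 h, when 45.3% of all probes passed. Sfpq and Rbm14 fell by 0.71 ± 0.05 and 0.72 ± 0.05 then, and Taf15 rose by 0.81 ± 0.09.

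The imprinted noncoding RNAs moved in different directions. At 6 h, 1 of 7 rose and 3 fell (median -0.146), at 24 h 1 fell, at 48 h 1 rose and 1 fell, and at 72 h 3 rose and 1 fell (median 0.155). Of all probes, 22%, 36.8%, 39.1% and 45.3% passed in either direction. In the Dlk1-Dio3 domain, Mirg, a host of many microRNAs, read 12.30, 12.56, 12.49 and 12.46 in the carrier samples and 11.88, 11.88, 11.97 and 11.89 at 6 h. It was back between 12.36 and 12.72 in every later sample. Its fall of 0.54 ± 0.05 at 6 h (adjusted p = 1.1e-06) was 0.50 within slide 1 and 0.60 within slide 2, and its step from 6 h to 24 h was a rise of 0.56 (adjusted p = 3.94e-06). At 72 h it was at 0.16 ± 0.07 (adjusted p = 0.0634) and passed without the carrier sample 1 in Cy5 (0.18) or the 72 h sample 2 in Cy5 (0.19). 6430411K18Rik of the same domain, which overlaps Rtl1 and holds Mir433, read 8.50, 8.74, 8.66 and 8.71 in the carrier samples and 7.91, 8.06, 8.09 and 8.11 at 6 h. Its change was -0.59 ± 0.08 at 6 h, -0.05 ± 0.09 at 24 h, -0.37 ± 0.08 at 48 h and -0.11 ± 0.09 at 72 h.

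Meg3, the maternally expressed RNA of that domain, was at -0.15 ± 0.09 at 6 h (adjusted p = 0.267), which passed without the 6 h sample 2 in Cy3 (-0.26), and rose at 72 h by 0.69 ± 0.10, from 15.20, 15.34, 15.21 and 15.43 to 16.10, 15.94, 16.09 and 15.81. Dio3os fell by 0.18 ± 0.05 at 6 h, a call lost without the 6 h sample 2 in Cy3 (-0.14) or the carrier sample 1 in Cy5 (-0.13). Its 6 h change was -0.27 within slide 1 and -0.07 within slide 2, and it passed in neither, nor with only the 2 groups compared (-0.16). Peg13, expressed from the paternal copy inside Trappc9, fell at all 4 times, by 0.57 ± 0.06, 0.25 ± 0.07, 0.37 ± 0.06 and 0.39 ± 0.07. Its samples read 11.77, 11.73, 11.86 and 11.91 with carrier and 11.13, 11.15, 11.43 and 11.19 at 6 h, and no treated sample reached a carrier sample. The call at 24 h was lost without the carrier samples 2 in Cy3 (-0.22) or 2 in Cy5 (-0.19). Trappc9 itself was at -0.025 at 6 h and rose by 0.32, 0.30 and 0.54 later.

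Kcnq1ot1, which silences genes around Kcnq1, rose by 0.46 ± 0.08 at 6 h, 0.44 ± 0.09 at 48 h and 0.47 ± 0.10 at 72 h and was at 0.23 ± 0.10 at 24 h (adjusted p = 0.0907), which passed without the carrier sample 1 in Cy5 (0.28) or the 24 h sample 2 in Cy5 (0.29). Airn, which silences Igf2r from the paternal copy, rose at 72 h by 0.44 ± 0.07, when Igf2r rose by 0.80 ± 0.07. Another probe of Airn was called in the opposite direction at 72 h. Gnasas1 passed at no time. Of 24 imprinted protein-coding genes measured, none rose and 6 fell at 6 h, 4 rose and 8 fell at 24 h, 5 rose and 13 fell at 48 h, and 6 rose and 9 fell at 72 h. Beside them, 22%, 36.8%, 39.1% and 45.3% of all probes passed in either direction. Rasgrf1 fell by 2.68 ± 0.095 and Slc38a4 by 1.06 ± 0.09 at 72 h, and Plagl1 rose by 1.16 ± 0.09.

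**Figure D3:**
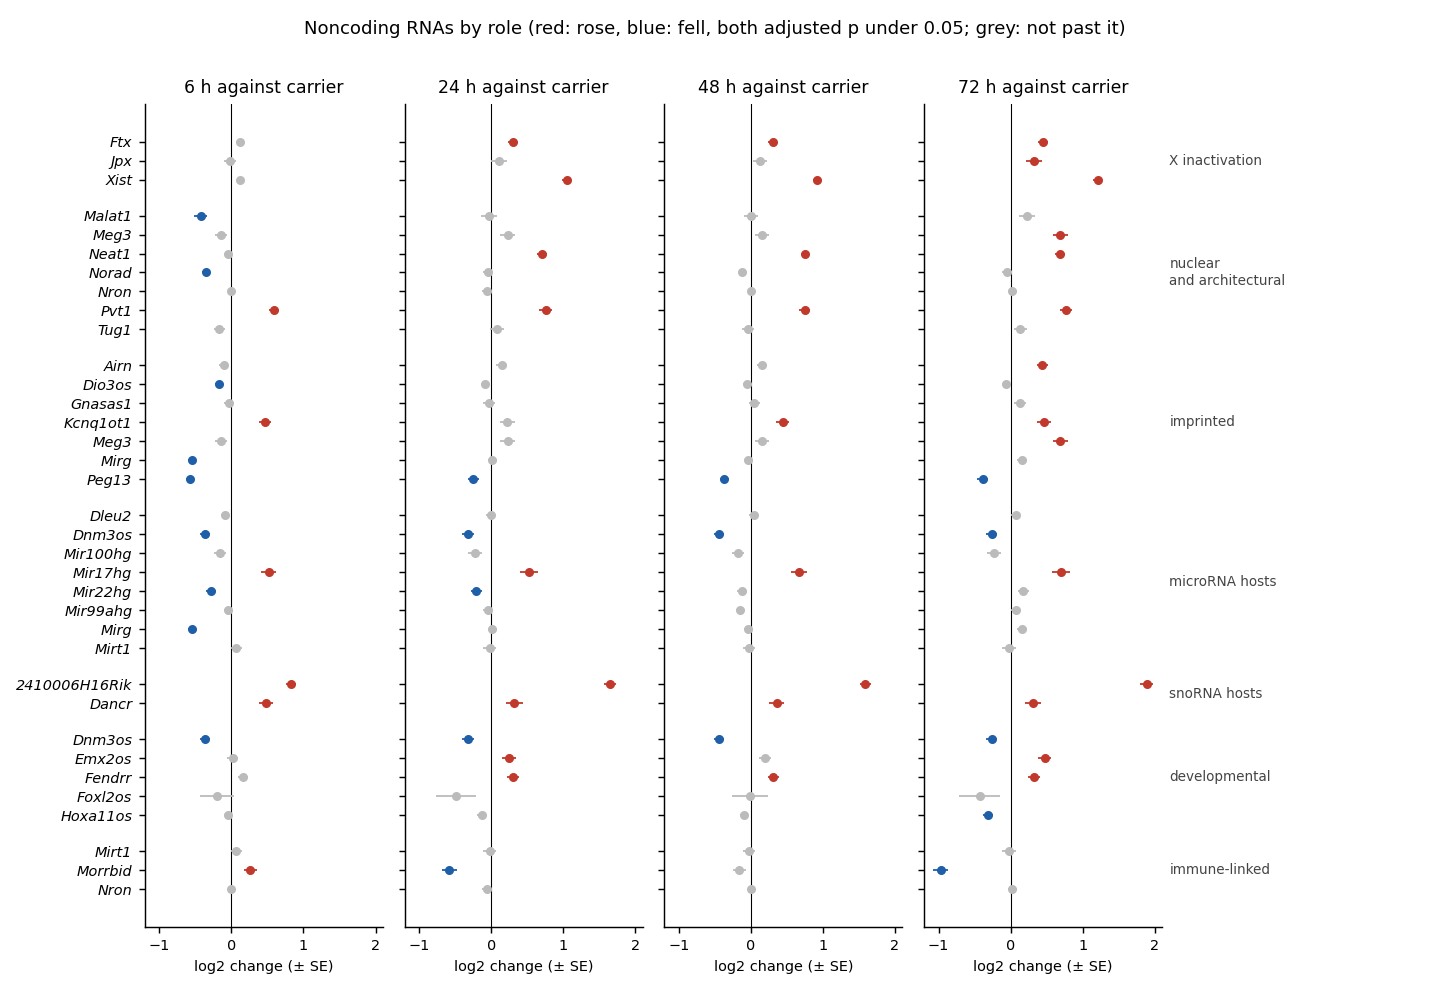
Each row is 1 noncoding gene, grouped by role, and each panel is 1 time; Meg3, Mirg, Dnm3os, Nron and Mirt1 stand in more than 1 group; points give the log2 change against the carrier and lines the SE. Xist and Neat1 are grey at 6 h and red from 24 h on, Malat1, Norad and Mirg are blue at 6 h alone, and Mir17hg, Pvt1, 2410006H16Rik and Dancr are red in all 4 panels.

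Of the 11 members whose span holds a microRNA gene, 1, 2, 2 and 3 rose and 4, 3, 2 and 2 fell at 6, 24, 48 and 72 h. Of these, Ftx, Meg3 and 6430411K18Rik are given above, and Dubr fell at 24 h and 72 h. On the list of 8 transcripts named as microRNA hosts, 1 rose at each time and 3, 2, 1 and 1 fell at 6, 24, 48 and 72 h (medians -0.12, -0.03, -0.08 and 0.07). Beside both lists, 22%, 36.8%, 39.1% and 45.3% of all probes passed in either direction. Mir17hg, the host of the miR-17 to miR-92 cluster, read 9.79, 10.40, 10.23 and 9.98 in the carrier samples and 10.55, 10.48, 10.73 and 10.63 at 6 h. It rose by 0.52 ± 0.10, 0.52 ± 0.12, 0.66 ± 0.11 and 0.70 ± 0.12 at the 4 times. Dnm3os, the host of miR-199a and miR-214, fell by 0.37 ± 0.07, 0.32 ± 0.08, 0.45 ± 0.07 and 0.26 ± 0.08, from 10.09, 9.91, 9.98 and 10.06 to 9.60, 9.61, 9.68 and 9.66 at 6 h. Its treated samples all lay below its carrier samples. The call at 72 h was lost without the carrier sample 2 in Cy5 (-0.23). Mir22hg fell by 0.29 ± 0.07 at 6 h and by 0.21 ± 0.08 at 24 h and was at -0.12 ± 0.07 at 48 h and 0.18 ± 0.08 at 72 h. The 24 h call (adjusted p = 0.0489) was lost when any of 6 of the 8 samples was left out, with changes of -0.12 (carrier 2 in Cy3), -0.18 (24 h 1 in Cy5), -0.19 (carrier 1 in Cy5), -0.20 (24 h 2 in Cy3), -0.21 (carrier 1 in Cy3) and -0.21 (24 h 2 in Cy5). The value at 48 h passed without the carrier sample 2 in Cy5 (-0.23), and that at 72 h without the carrier sample 2 in Cy3 (0.26) or the 72 h sample 1 in Cy3 (0.22). Without a slide term the falls of Dnm3os at 24 h (-0.23) and 72 h (-0.17) and of Mir22hg at 6 h (-0.28) and 24 h (-0.0047) did not pass.

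Dleu2, Mir100hg, Mir99ahg and Mirt1 passed at no time. Mir100hg was between -0.16 and -0.24 at all 4 times (lowest adjusted p = 0.0574), and without the carrier sample 1 in Cy3 it passed as lower at all 4 times (-0.23 to -0.29). It also passed without the 6 h sample 2 in Cy3 at 6 h (-0.24) and without the 48 h sample 1 in Cy3 at 48 h (-0.25). D7Ertd143e, whose span holds 7 microRNA genes of the miR-290 family, also passed at no time, with samples from 7.27 to 7.69 over all groups. Of 18 genes of microRNA processing, 2 rose and 5 fell at 6 h, and 7 rose and 4 fell at 72 h, when 22% and 45.3% of all probes passed. Tnrc6c, which helps Argonaute proteins silence their targets, rose by 0.85 ± 0.08 at 72 h, Ago4 by 0.67 ± 0.09 and the helicase gene Ddx5 by 0.71 ± 0.07. Tnrc6b fell by 0.52 ± 0.08.

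Among members with a symbol, the largest falls at 72 h were those of 3300005D01Rik, Lockd and Hmga2-ps1. 3300005D01Rik, of no known role, read 11.73, 11.96, 12 and 11.69 in the carrier samples, 11.57, 11.48, 11.66 and 11.58 at 6 h, 10.66, 10.78, 10.66 and 10.59 at 24 h, 10.76, 10.60, 10.73 and 10.86 at 48 h, and 9.71, 9.88, 9.85 and 9.92 at 72 h. It fell in 2 steps, with 24 h and 48 h overlapping and 72 h below both. The change was -0.26 ± 0.07, -1.17 ± 0.08, -1.10 ± 0.08 and -2.001 ± 0.08, so that 0.25 of the carrier level was left at 72 h (adjusted p = 4.04e-12). The 6 h call was lost without the carrier samples 2 in Cy3 (-0.21) or 1 in Cy5 (-0.21), or the 6 h sample 1 in Cy5 (-0.22). Its nearest coding gene in the table, Snx9, fell by 0.74 ± 0.08 at 72 h. Lockd, transcribed next to the cell cycle inhibitor gene Cdkn1b, read 13.09, 12.74, 13.11 and 13.03 in the carrier samples, 12.51, 12.78, 12.49 and 12.46 at 6 h, 11.76, 11.86, 11.74 and 11.80 at 24 h, 12.16, 12.13, 12.18 and 12.32 at 48 h, and 11.70, 11.65, 11.63 and 11.63 at 72 h. The carrier and 6 h samples overlapped, and all later samples lay below both. Its change was -0.41 ± 0.07, -1.19 ± 0.08, -0.78 ± 0.07 and -1.33 ± 0.08, with a rise of 0.41 from 24 h to 48 h (adjusted p = 0.00277) and a fall of 0.54 from 48 h to 72 h (adjusted p = 8.5e-05). Cdkn1b fell by 0.19 ± 0.06 at 6 h and was at -0.08, 0.03 and 0.11 later.

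Over the 4 times, 4 members called at 2 times and 3 called at 3 times passed in both directions. Map2k3os and Morrbid among them rose at 6 h and fell later. Map2k3os, opposite the p38 pathway kinase gene Map2k3, read 10.11, 10.79, 10.50 and 10.54 in the carrier samples, 11.01, 10.82, 11.33 and 10.998 at 6 h, 9.95, 10.02, 10.10 and 9.82 at 24 h, 10.30, 10.28, 10.37 and 10.21 at 48 h, and 9.37, 9.43, 9.48 and 9.59 at 72 h. Its change went from 0.56 ± 0.10 at 6 h to -0.51 ± 0.12 at 24 h, -0.20 ± 0.11 at 48 h and -1.02 ± 0.12 at 72 h, and the step from 6 h to 24 h was -1.07 (adjusted p = 2.74e-06). Morrbid, known for controlling the life span of myeloid cells through Bcl2l11, changed by 0.26 ± 0.09, -0.58 ± 0.10, -0.16 ± 0.09 and -0.97 ± 0.10. Its 24 h samples (9.08, 9.02, 9.09 and 9.04) and 72 h samples (8.60, 8.61, 8.69 and 8.77) lay below all carrier samples (9.40, 9.85, 9.77 and 9.57). The rise at 6 h (adjusted p = 0.0351) was lost without the carrier samples 1 in Cy3 (0.13) or 2 in Cy5 (0.23), or the 6 h samples 1 in Cy3 (0.22) or 1 in Cy5 (0.18). Bcl2l11 passed at no time, with changes between -0.17 and 0.01. At 48 h both passed as lower without the carrier sample 1 in Cy3 (Map2k3os -0.27 and Morrbid -0.23). Without a slide term the 6 h rise of Morrbid (0.28) did not pass.

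Further falls from 24 h on were those of Gm16062 (-0.63 ± 0.10 at 24 h and -1.08 ± 0.10 at 72 h), 2810001G20Rik (-0.83 ± 0.09 at 72 h) and 2210416O15Rik (-0.70 ± 0.07 at 72 h). 1700022A21Rik and D5Ertd605e fell at all 4 times, by 0.38 ± 0.09 and 0.32 ± 0.07 at 6 h and by 0.84 ± 0.10 and 0.59 ± 0.09 at 72 h. Without a slide term the falls of 1700022A21Rik at 6 h (-0.37), 24 h (-0.51) and 72 h (-0.37) did not pass. 9330133O14Rik was lower at 6 h (-0.37 ± 0.06) and 48 h (-0.24 ± 0.07) and not at 24 h (0.04 ± 0.07) or 72 h (0.12 ± 0.07). Without the carrier sample 2 in Cy5 its 48 h call was lost (-0.14) and that at 72 h passed as a rise (0.21).

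Of 28 members named as opposite-strand or antisense transcripts, 4 rose and 3 fell at 6 h, 8 and 6 at 24 h, 6 and 1 at 48 h, and 6 and 6 at 72 h, with medians between -0.06 and 0.04. The shares of all probes that passed were 22%, 36.8%, 39.1% and 45.3%. For 26 of the 28 members the coding gene they are named after was tested too. At 72 h both passed in the same direction for 5, in opposite directions for 2, the noncoding gene alone for 5 and the coding gene alone for 9. Sp3os read 10.95, 10.82, 10.90 and 10.82 in the carrier samples, 10.87, 11.01, 10.79 and 10.98 at 6 h, and from 11.80 to 12.01 in all later samples. It rose by 0.95 ± 0.06, 1.08 ± 0.05 and 1.04 ± 0.06 at 24, 48 and 72 h, while the transcription factor gene Sp3 passed at no time (changes between -0.11 and 0.13). Rab10os rose at all 4 times by 0.29 to 0.46, and Rab10 rose by 0.17 at 72 h. Zbtb11os1 rose at all 4 times as well, by 0.25 to 0.42. Foxd2os rose at 6, 24 and 48 h, most at 48 h (0.45 ± 0.05), when its samples (9.52, 9.47, 9.60 and 9.62) lay above all others. Its 6 h rise of 0.21 ± 0.05 was 0.30 within slide 1 and 0.09 within slide 2 and passed in neither, nor with only the 2 groups compared (0.19). Its 24 h call (0.17 ± 0.06) was lost without any of 5 samples (0.15 to 0.17), namely the carrier samples 1 in Cy3 and in Cy5 and the 24 h samples 1 in Cy3, 1 in Cy5 and 2 in Cy3. It was also lost with only the 2 groups compared (0.11) and within slide 2 (0.11). At 72 h it was at 0.15 ± 0.06 and passed without the carrier sample 2 in Cy3 (0.19). Foxd2 passed at no time.

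In other pairs the coding gene changed more or in the other direction. Has2, which makes hyaluronan, was at -2.14, -2.07 and -2.72 at 24, 48 and 72 h, and Has2os was at -0.29, -0.12 and -0.22, of which 24 h and 72 h passed. Emx2, a homeobox gene, rose by 1.30 and Emx2os by 0.47 ± 0.09 at 72 h. Emx2os also rose at 24 h by 0.25 ± 0.09, a call lost without the carrier samples 1 in Cy3, 1 in Cy5 or 2 in Cy5 or the 24 h samples 1 in Cy3, 1 in Cy5 or 2 in Cy5 (changes of 0.21 to 0.26). At 48 h it was at 0.20 ± 0.08 and passed without the carrier sample 2 in Cy3 (0.28) or the 48 h sample 1 in Cy3 (0.25). Map2k3 fell by 0.85, 0.81 and 1.19 at 24, 48 and 72 h, and at 6 h, when Map2k3os rose, it was at -0.17. Dnm3os fell and Dnm3 rose at 72 h (-0.26 and 0.41), and Stk35os1 rose and Stk35 fell (0.24 and -0.19). The differences between the members and their coding genes were not tested, and levels of different probes cannot be set against each other.

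**Figure D4:**
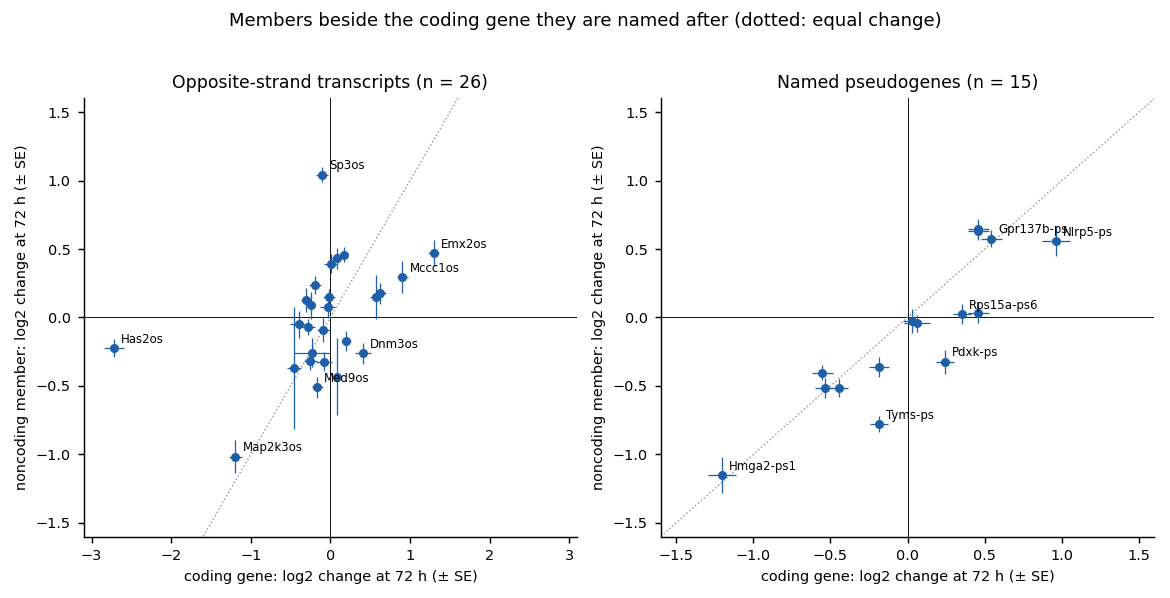
Each point is 1 noncoding member, placed by the log2 change at 72 h of the coding gene it is named after (horizontal) and its own (vertical), with SE lines; the left panel has 26 opposite-strand transcripts and the right panel 15 pseudogenes, the horizontal scales differ, and the dotted line marks equal changes. Pseudogenes such as Hmga2-ps1 and Gpr137b-ps lie near the line, while Sp3os and Has2os lie far from it.

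Of 105 pseudogene transcripts, 13 rose and 14 fell at 6 h, 24 and 18 at 24 h, 27 and 20 at 48 h, and 27 and 22 at 72 h, with medians from 0.0033 to 0.022. Of all probes, 22%, 36.8%, 39.1% and 45.3% passed in either direction at these times. Where the parent gene was tested as well (15 members), both passed in the same direction for 4, 8, 10 and 10 members at the 4 times, and in opposite directions for none before 72 h and for 1 then, Pdxk-ps (-0.32 ± 0.09, with Pdxk at 0.24). Several moved by nearly the same amount as their parent. Hmga2-ps1 was at -0.27, -0.75, -0.78 and -1.15 and Hmga2, a chromatin protein gene, at -0.20, -0.71, -0.77 and -1.203. The 6 h value of Hmga2-ps1 did not pass, but passed within slide 2 (-0.52) and without the carrier sample 1 in Cy3 (-0.47) or the 6 h sample 2 in Cy3 (-0.36). Hmgb1-rs17 was at -0.34, -0.53, -0.58 and -0.52 and Hmgb1 at -0.34, -0.55, -0.56 and -0.54. Gpr137b-ps rose by 0.50 ± 0.05, 0.71 ± 0.06, 0.60 ± 0.05 and 0.58 ± 0.06 and Gpr137b by 0.50, 0.71, 0.49 and 0.54. A pseudogene and its parent share sequence, so a probe can read both, and these values are uncertain as levels of the pseudogene.

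Others changed by another amount than their parent, a difference that was not tested. Tyms-ps fell by 0.56 ± 0.06, 0.50 ± 0.05 and 0.78 ± 0.06 at 24, 48 and 72 h, from 12.36, 12.49, 12.42 and 12.41 to 11.67, 11.63, 11.57 and 11.69 at 72 h. Tyms, the thymidylate synthase gene, was at -0.15, -0.19 and -0.18, of which 48 h and 72 h passed as lower. Rps15a-ps6 passed at no time (-0.05 to 0.06) while the ribosomal protein gene Rps15a rose by 0.33 to 0.45 from 24 h on. Nlrp5-ps rose by 0.52 to 0.56 from 24 h on and Nlrp5 by 0.83 to 0.98. 2 pseudogene transcripts with no parent in their name moved early or evenly: 6820431F20Rik rose by 0.44 ± 0.04, 0.44 ± 0.05, 0.50 ± 0.05 and 0.80 ± 0.05, and Gm6607 by 0.47 ± 0.06, 0.69 ± 0.05 and 0.57 ± 0.06 from 24 h on.

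The list of structural and short noncoding RNAs had 12 members, 4 of them the microRNA hosts Mir100hg, Mir17hg, Mir22hg and Mir99ahg, which its symbol rule took in. At 6 h 1 rose (Mir17hg) and 1 fell (Mir22hg), 2 rose and 4 fell at 24 h and at 48 h, and 3 rose and 3 fell at 72 h. The shares over all probes, in either direction, were 22%, 36.8%, 39.1% and 45.3%. Per the labels the complementary DNA was primed with oligo-dT, so RNAs without a tail were read only as far as that step copied them. Rnu3b1, a U3 RNA of ribosomal RNA processing, read 11.38, 11.19, 11.40 and 11.13 in the carrier samples and 10.56, 10.62, 10.49 and 10.61 at 72 h, with no overlap. It fell by 0.49 ± 0.07, 0.66 ± 0.07 and 0.71 ± 0.07 at 24, 48 and 72 h. Snora47 fell by 0.43 ± 0.09, 0.67 ± 0.08 and 0.64 ± 0.09, while Zbed3, whose span overlaps it, fell by 0.48, 0.42 and 0.51. Rnu2-10, a U2 RNA of the major spliceosome, fell by 0.42 ± 0.095, 0.50 ± 0.084 and 0.41 ± 0.095 at 24, 48 and 72 h. Rnu12, the U12 RNA of the minor spliceosome, rose by 0.41 ± 0.05, 0.37 ± 0.05 and 0.33 ± 0.05, from 13.67, 13.59, 13.61 and 13.62 to 14.02, 14.04, 14.03 and 14.06 at 24 h. Snora74a fell at 48 h alone (-0.28 ± 0.09). Rmrp rose at 72 h (0.28 ± 0.10), and the telomerase RNA Terc and the U1 RNA Rnu1b6 passed at no time. Without a slide term the falls of Snora47 at 24 h (-0.06) and 72 h (-0.27) and of Rnu3b1 at 24 h (-0.27) did not pass.

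Of 5 developmental RNAs, none rose and 1 fell at 6 h, 2 rose and 1 fell at 24 h, 1 and 1 at 48 h, and 2 and 2 at 72 h. Fendrr, of the Foxf1 locus, rose by 0.30 ± 0.08, 0.31 ± 0.07 and 0.33 ± 0.08 from 24 h on, passed at 6 h without the 6 h sample 1 in Cy3 (0.22), and without a slide term did not pass at 24 h (0.17) or 72 h (0.20). Hoxa11os fell by 0.32 ± 0.07 at 72 h. Foxl2os, named after the gene of an ovarian transcription factor, passed at no time. It read 6.75, 6.68, 6.61 and 7.90 at 48 h and 6.84, 6.81, 8.03 and 6.56 with carrier, and the 2 high values shared array 7. Without that array it rose at 48 h (0.23, adjusted p = 0.0297, against -0.01 with it). Of 3 immune-linked RNAs, Morrbid is given above, and Mirt1 and Nron passed at no time. Of 38 genes of nonsense-mediated decay and the RNA exosome, 13 rose and 2 fell at 6 h, 7 and 7 at 24 h, 8 and 9 at 48 h, and 9 and 9 at 72 h. Over all probes 22%, 36.8%, 39.1% and 45.3% passed at these times. Upf1, the central decay helicase, fell by 0.45 ± 0.07, 0.45 ± 0.06 and 0.59 ± 0.07 from 24 h on, Exosc6 by 0.69 ± 0.05 at 72 h, and Zcchc7 rose by 0.54 ± 0.07 at 72 h.

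Between successive times, 118 of the 522 genes changed from 6 h to 24 h (59 rose and 59 fell, 22.6% beside 29.9% of all probes, 15.2% up and 14.8% down), 32 from 24 h to 48 h (21 rose and 11 fell, 6.13% beside 10%, 4.71% up and 5.34% down) and 91 from 48 h to 72 h (46 rose and 45 fell, 17.4% beside 21.3%, 11.9% up and 9.47% down). With loess alone these counts were 73, 3 and 31, and without a slide term 71, 12 and 48. From 6 h to 24 h, 2 genes moved more than 2-fold (0.612% of all probes did), Map2k3os and an unnamed transcript with the accession NR_045098, both falling. The comparisons share groups, so that a value of 48 h that lies low or high enters both steps around it. Dubr, a long noncoding RNA named for its place upstream of Dppa2, was lower than the carrier at 24 h and 72 h (-0.25 ± 0.07 and -0.26 ± 0.07) and at 0.00 ± 0.06 at 48 h, and both steps passed the test (0.25 and -0.26). It was chosen after its values were seen.

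The 42 genes known only by accession had medians between -0.03 and 0.0045 at the 4 times. The transcript NR_027905 read 10.43, 10.45, 10.36 and 10.31 in the carrier samples and 11.60, 11.49, 11.48 and 11.58 at 6 h, a rise of 1.14 ± 0.04, and it reached 1.45 ± 0.05 at 72 h. NR_045098 fell by 0.22 ± 0.07, 1.24 ± 0.08, 1.11 ± 0.08 and 1.64 ± 0.08. The tables used here pair neither with a gene name.

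Near the detection threshold, 19 members were well above background in exactly 4 samples, with mean log2 intensities from 6.40 to 6.70, and 12 probes that missed the rule with 3 samples had 6.34 to 6.56. Of the 522 genes, 348 were well above background in all 20 samples, 15 in no carrier sample, and none in the samples of a single group alone. For 6 named genes a fold is only a lower bound. At 72 h E330011O21Rik was at least 1.5-fold higher (3 of 4 samples well above background, against none with carrier), a call lost with loess alone (0.53) and with a normexp offset of 10 (1.03). Gm16287 was at least 1.3-fold and Jpx at least 1.19-fold higher at 72 h, and U90926 was at least 1.26-fold and Gm839 at least 1.05-fold lower. E330011O21Rik lies nearest to Cxadr, a cell adhesion gene that rose by 3.26 ± 0.09 at 72 h. Its own 24 h call (at least 1.4-fold) was lost without the carrier samples 1 in Cy3, 2 in Cy3 or 2 in Cy5 or the 24 h samples 1 in Cy3, 2 in Cy3 or 1 in Cy5 (changes of 0.39 to 0.52). Without the 48 h sample 2 in Cy5 Gm16287 passed as a rise at 48 h (0.39), and without the carrier sample 2 in Cy3 U90926 passed as a fall at 24 h (-0.49). Mtag2 was at least 1.25-fold higher at 6 h, a call lost without the carrier samples 1 in Cy3 (0.22) or 2 in Cy3 (0.30) or the 6 h samples 1 in Cy3 (0.30) or 1 in Cy5 (0.24). Gm839's call was lost without the carrier sample 2 in Cy5 (-0.31).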

How the data were processed

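Total RNA of 20 samples was amplified, labelled with Cy3 or Cy5 and hybridised 2 to an array, with no common reference. Per the file headers, Agilent Feature Extraction 10.7.3.1 read slide 1 and 11.0.1.1 slide 2, which ties slide to software. Intensity values were deposited as each spot's median brightness and local background, not normalized. The authors' deposited value table holds log2 intensities, with medians of 7 to 7.01 and a correlation of 0.999 to 1 with each sample's own channel; it was an alternative. R 2.15 and limma are named in the submitters' processing notes, and how they were applied is not given in the sources used here.

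Here normexp with an offset of 50 removed background, loess (within arrays) and Aquantile (between arrays) normalized the signals, and they were fitted in R 4.3.3 with limma 3.58.1, with group, dye and slide as terms, the array being a random block (correlation 0.254). The plan named median or mean signals; the median was used. Moderated tests were two-sided and adjusted by Benjamini-Hochberg over all 33315 probes that met the detection rule of 4 of 20 samples. Both normalizations assume that most genes do not change. Of several probes the brightest stood for its gene. At 6, 24, 48 and 72 h, 20 of 21, 26 of 31, 28 of 33 and 30 of 38 other probes of called genes moved in its direction. Other probes called in the opposite direction were 1 at 48 h (1500011B03Rik) and 4 at 72 h (1500011B03Rik, Airn, Gm10731 and Gm10845).

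The 2 software runs used different versions of the array design: 1216 probes had an NR_ accession in the later one, used here, and 771 in the earlier, with 758 in both. Symbols, gene spans and start regions came from RefSeq (GRCm38.p6). The design's own annotation is mm9, so no coordinates of probes are given. 3 probes of an accession no longer in the table, taken to be a former Gas5 accession, were left out. Sequences were matched by symbol: 296 members had a start region. The members, gene lists and tests were chosen with earlier results of these data known. Probes of 3 members lacked a value in a sample, and the fit left that sample out for them. Named genes were, per time, the 8 largest rises and 8 largest falls among called genes with a symbol whose 4 and 4 values did not overlap, up to 3 bounded genes per direction, all members of the role lists, and up to 4 of each longer list by smallest adjusted p; unnamed accessions, Dubr, D7Ertd143e, and the other opposite-strand transcripts, pseudogenes and short RNAs were added after their values were seen. A bound divides the brighter mean by the dimmer samples' own values or the array's lowest signal of any probe that stood well above background, whichever was higher. Precision is limited by the number of arrays. The fit was tested on simulated data. Alternatives were other background corrections, normalizations, filters, probe choices, fits and left-out samples.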

Additional observations from a re-analysis of the deposited data

Results flagged for a closer look

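For named noncoding genes, 330 groups of 4 samples were searched for a sample set apart from the other 3 by most of the group's range. This marked 18 groups, 5.45%, and chance marks about 1 in 20. Values are normalized log2 intensities, given with the nearest of the other 3 samples. Among the RNAs of known roles, Neat1 had the carrier sample 2 in Cy3 at 13.46 (nearest 13.52) and the 24 h sample 1 in Cy3 at 14.12 (nearest 14.23). Pvt1 had the 6 h sample 1 in Cy5 at 12.67 (nearest 12.50) and the 48 h sample 1 in Cy5 at 12.53 (nearest 12.75). Lockd had the 6 h sample 1 in Cy5 at 12.78 (nearest 12.51), the sample that overlapped the carrier. For Mirg it was the 6 h sample 2 in Cy3 at 11.97 (nearest 11.89), for Dancr the 72 h sample 2 in Cy5 at 11.47 (nearest 11.62), and for Kantr the 6 h sample 2 in Cy5 at 9.99 (nearest 10.01). In the X inactivation centre Ftx had the 24 h sample 2 in Cy3 at 8.52 (nearest 8.43) and Jpx the 24 h sample 2 in Cy3 at 6.43 (nearest 6.68). 

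Array 7, which had the largest shares of spots above background, carried the sample set apart for Foxl2os, the 48 h sample 2 in Cy5 at 7.90 (nearest 6.75), for D630029K05Rik, the 48 h sample 2 in Cy5 at 8.15 (nearest 8.46), and for Gm16287, the 48 h sample 2 in Cy5 at 6.16 (nearest 6.69). It also carried the carrier sample of Neat1 given above. The part of that array in these values was not tested. Gm16287 had a second, the 24 h sample 2 in Cy5 at 6.52 (nearest 6.65). The others were 2810001G20Rik with the 24 h sample 1 in Cy5 at 9.75 (nearest 9.89), Hmga2-ps1 with the 24 h sample 2 in Cy5 at 10.03 (nearest 10.13), 6820431F20Rik with the 48 h sample 1 in Cy5 at 12.99 (nearest 12.91) and Gm6607 with the 72 h sample 2 in Cy5 at 16.24 (nearest 16.19).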

How the results depend on the processing

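The counts of noncoding genes called kept within 1.5 times of the reported value under the other alternatives tried, with these exceptions. At 6 h against the carrier (101 reported) 57 were called with only the 2 groups compared and 8 within slide 1. At 24 h (165) loess within arrays alone gave 104. From 6 h to 24 h (118) it gave 73, and leaving out the slide term gave 71. From 24 h to 48 h (32) loess alone gave 3, no slide term 12, and slide 2 alone 49. From 48 h to 72 h (91) they gave 31 with loess alone and 48 without a slide term, and 58 of 351 genes when the noncoding accession was required in both design files, an alternative chosen after seeing the data. Fewer samples or fewer genes enter the fits within a slide, on 2 groups and on both design files. Why the counts moved was not tested for any of these settings. Leaving out 1 sample at a time gave 81 to 106 genes at 6 h, 130 to 169 at 24 h, 141 to 177 at 48 h, 189 to 222 at 72 h, and 87 to 121, 24 to 34 and 68 to 90 for the successive steps.

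Among the values of named genes that passed the test, 166 in all, 46 lost the call under at least 1 alternative other than leaving out a sample, and 21 when a sample was left out. None of these turned direction. Of 98 values that had not passed, 1 passed in the other direction: Foxl2os at 48 h, -0.01 as reported, was 0.234 without the array with most spots above background (adjusted p = 0.0297). Samples of different groups with the same number and dye were compared after the dye term was removed. The deviations of these 40 pairs correlated from -0.617 to 0.18, and 0 of 20 samples lay closest to a sample of its own label. The samples of an array always differed in dye and so in label. This comparison therefore cannot show whether the labels pair the samples, or whether both dyes of a group carried the same RNA. A replicate block gave 105, 153, 169 and 206 called genes at the 4 times and 115, 32 and 85 for the steps. Dim probes limit what could be seen, since 53.4% of the noncoding genes fell in the dimmest of 3 equal classes of signal.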
